A study of Mus musculus with 24 samples.

Results

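Livers of 6 streptozotocin-treated BALB/c mice fed 0.5% quercetin were compared with livers of 6 streptozotocin-treated mice on the same diet without it, on 1 expression array per mouse. These 12 arrays were taken by their titles from the 24 arrays of the study. The first group, called 0.5% quercetin here, was male, 6 weeks old when the study began, injected with 185 mg/kg streptozotocin and then given the purified AIN93G diet with 0.5% quercetin for 14 days. The second group, called STZ, had the same sex, strain, age and injection and had the plain AIN93G diet for those 14 days. The other 12 mice, used only to place these animals, were 6 injected mice on 0.1% quercetin and 6 untreated controls on AIN93G. All injected mice had been selected by a non-fasting blood glucose of 230 to 400 mg/dL before the diets began. Mice were housed 3 to a cage, and the labels do not say which mice shared one, so cage and diet cannot be told apart and p-values measure only the spread between these mice.

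Quercetin is a plant flavonol that the gut and liver quickly glucuronidate, sulfate and methylate, and it is best known for antioxidant and anti-inflammatory effects in cultured cells and rodents. Streptozotocin enters cells through the glucose transporter GLUT2, alkylates their DNA and so destroys insulin-producing beta cells. The hepatocyte also carries GLUT2, so the liver of such a mouse can show both the alkylation itself, through p53 and its target genes, and the later lack of insulin, through genes of glucose and lipid metabolism.

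The 0.5% quercetin group was uneven. Replicates 1 to 4 had hepatic profiles close to the STZ mice, whereas replicates 5 and 6 lay beside the untreated controls for most genes on which STZ and control mice differed. Among these were interferon response and MHC class II genes, and also p53 targets and macrophage markers, whose list means lay beyond every control. Values are therefore given for each mouse where a gene is described at length, and differences with and without replicates 5 and 6. Expression is given as a level, log2(intensity + 16) after quantile normalization, which is 4 for an intensity of 0 and 5 for an intensity of 16. A difference is 0.5% quercetin minus STZ on that log2 scale, so genes near the floor have understated folds. Over all genes the median difference was 0.0011. It was -0.085 on the values as deposited, without normalization between arrays, and -0.071 under median scaling. Genes and lists given under those settings are to be read against these medians. By limma, with 13114 genes tested, 0 genes were higher (0%) and 0 were lower (0%) at an adjusted p of 0.05. At an unadjusted p under 0.05 there were 985 genes (7.51%) where 656 were expected by chance, 476 of them higher (3.63%) and 509 lower (3.88%). Without replicates 5 and 6 there were 588 such genes (4.48%), and the smallest adjusted p was 0.419, against 0.219 with all 6 mice.

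The distance of each mouse from the STZ group was measured on the 488 genes that differed between STZ and control mice, 266 higher (2.03%) and 222 lower (1.69%) in STZ mice. Replicates 1 to 6 at 0.5% quercetin were nearer the control mean than the STZ mean for 25.8%, 15.2%, 24.4%, 14.1%, 80.1% and 84.4% of these genes. The 0.1% quercetin mice, placed on the same genes, had 14.3%, 26.2%, 12.5%, 24.8%, 13.3% and 14.8%. The genes were picked with the same STZ and control mice that set both ends of the scale. That choice draws another mouse like either group toward the opposite end, and the 0.1% mice carry that shift too. Replicates 5 and 6 stood apart from the other 10 quercetin-fed mice. The blood glucose of single mice is not given in the sources used here, so it cannot be said how diabetic either was at the end of the diets. They lay inside the control range for 309 and 318 of the 488 genes and inside the STZ range for 99 and 75, whereas replicates 1 to 4 lay inside the STZ range for 296, 344, 305 and 366. On the values as deposited, without normalization between arrays, the shares of replicates 5 and 6 were 90.7% and 91.9% of 161 genes, and under median scaling 60.8% and 54.1% of 449 genes.

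**Figure D1:**
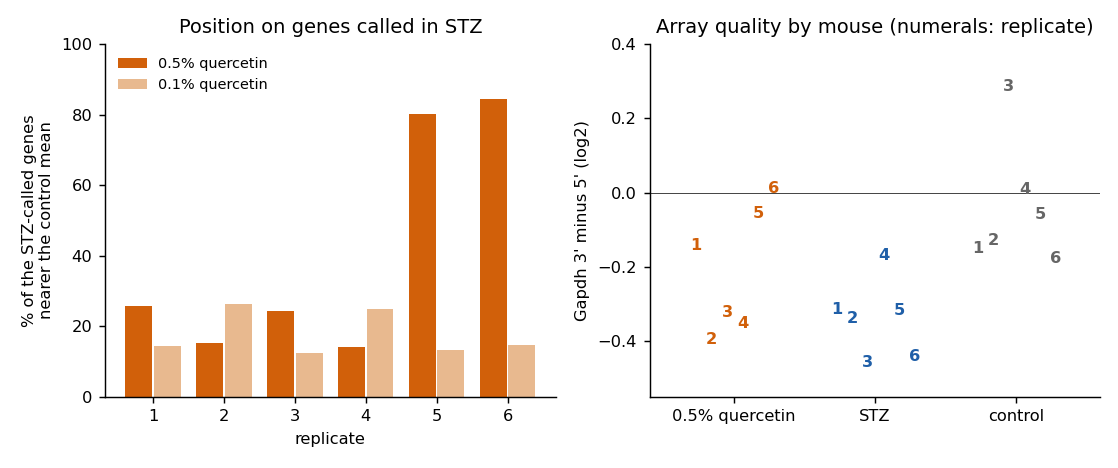
Left, the percentage of the genes called between STZ and control mice for which each quercetin-fed mouse lay nearer the control mean, by replicate number, with 0.5% quercetin in dark orange and 0.1% in light orange. Right, the 3' minus 5' log2 difference of Gapdh, an index of array quality, in 0.5% quercetin, STZ and control mice, with numerals giving the replicate; replicates 5 and 6 of the 0.5% group stand at 80.1% and 84.4% on the left and have the 2 highest values of their group, -0.06 and 0.01, on the right.

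The first principal component of the 24 arrays, with 22.4% of the variance, stood at 3.17, 5.28, 6.59, 9.5, -17.2 and -19.2 for replicates 1 to 6 at 0.5% quercetin, between -0.86 and 15.03 in STZ mice and between -18.3 and -13.5 in controls. Array quality moved with this split. The Gapdh 3' minus 5' difference, which depends on RNA integrity and labelling, was -0.14, -0.40, -0.32, -0.35, -0.06 and 0.01 in the 0.5% quercetin mice, against -0.46 to -0.17 in STZ mice and -0.18 to 0.28 in controls. As groups, 0.5% quercetin averaged -0.21 ± 0.17 and STZ -0.34 ± 0.10 (SD, n = 6 each), a difference of 0.13 with an exact two-sided permutation p of 0.132. Replicates 5 and 6 also had the lowest mean intensities of their group as deposited, 66.8 and 61.0, where the other 4 arrays had 75 to 86.1. The part of array quality in the differences below was not tested. Liver markers overlapped between the groups: the summed intensity of 12 hepatocyte markers was 56693 to 59010 at 0.5% quercetin and 55433 to 59961 in STZ mice.

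The spread between mice was larger at 0.5% quercetin than in STZ mice for 8251 genes (62.9%). The median SD over genes was 0.194 at 0.5% quercetin, 0.178 at 0.1%, 0.166 in STZ mice and 0.170 in controls, and it was 0.168 over 0.5% quercetin replicates 1 to 4. Genes above all 6 STZ mice made up 17.9%, 14%, 16.2%, 13.3%, 21.9% and 23.6% of all genes tested in replicates 1 to 6. Genes below all 6 STZ mice made up 16.9%, 13.5%, 17.5%, 13.8%, 19.5% and 21.3%. Replicates 5 and 6 exceeded the others in both directions, and the counts for gene lists below are read against these shares. Genes at least 2-fold below the STZ mean numbered 14, 13, 21, 5, 85 and 95 in the 6 mice, and genes at least 2-fold above it 12, 6, 19, 6, 33 and 57.

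Targets of p53, the transcription factor that answers DNA damage, divided the mice in this way. Of 30 genes listed 28 were tested, and 21 of these had a lower mean at 0.5% quercetin, against 49.6% of all genes. None passed the adjusted threshold and 8 had an unadjusted p under 0.05, all of them lower. The median difference was -0.12 over the 28 genes and -0.053 without replicates 5 and 6, beside 0.0011 and -0.00065 over all genes. In the comparison of STZ with control, which shares the STZ mice, the median of the list was 0.44. The number of its genes below all 6 STZ mice was 5, 4, 9, 5, 17 and 13 in replicates 1 to 6. The mean of the list over all genes, relative to the STZ mean, was 0.0067, -0.0085, -0.092, -0.020, -0.74 and -0.66 in these mice, while STZ mice ranged from -0.13 to 0.14 and controls from -0.65 to -0.53. Replicates 1 to 4 thus lay within the STZ range and replicates 5 and 6 beyond the lowest control.

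**Figure D2:**
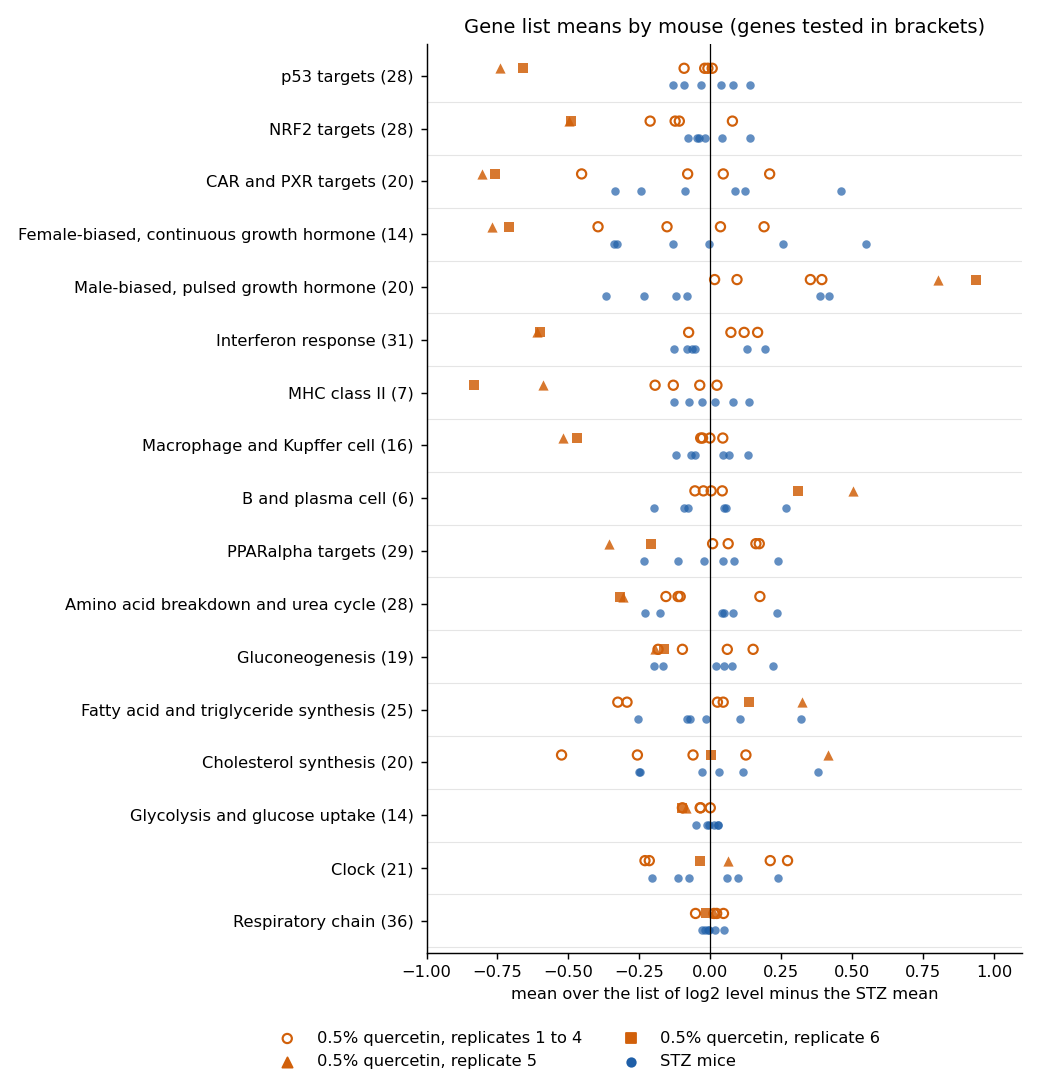
Mean over the tested genes of each list of the log2 level minus the STZ mean, 1 mark per mouse, with the number of genes in brackets. Open circles are 0.5% quercetin replicates 1 to 4, the triangle is replicate 5, the square is replicate 6, and blue dots are the 6 STZ mice; for p53 targets the open circles lie between -0.092 and 0.0067 and the triangle and square at -0.74 and -0.66.

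Cdkn1a, the p53-induced inhibitor of cyclin-dependent kinases, had levels of 9.29, 8.22, 7.70, 8.24, 5.01 and 4.72 in replicates 1 to 6 at 0.5% quercetin. STZ mice had 8.4 to 8.91 with a median of 8.63, and controls had 4.85 to 6.04 with a median of 5.57. Replicate 1 lay above every STZ mouse, replicates 2 to 4 lay below the lowest of them, and replicate 6 lay below every control. The group averaged 7.20 ± 1.88 at 0.5% quercetin and 8.66 ± 0.20 in STZ mice (SD, n = 6 each), a difference of -1.46 (SE 0.50, limma adjusted p = 0.562) that was -0.30 without replicates 5 and 6. A second Cdkn1a probe set differed by -0.70.

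Phlda3, a p53-induced repressor of Akt signalling, stood at 7.34, 7.18, 6.84, 6.98, 4.91 and 4.82 at 0.5% quercetin and at 6.89 to 7.58 with a median of 7.27 in STZ mice, with controls at 4.58 to 4.93. Ccng1, cyclin G1, a classical p53 target in liver, stood at 8.56, 8.68, 8.59, 8.45, 7.17 and 6.64, against 8.37 to 8.92 with a median of 8.74 in STZ mice. All 4 of replicates 1 to 4 were inside the STZ range for Ccng1, and replicate 3 was just below it for Phlda3. Their differences were -0.90 (SE 0.31, adjusted p = 0.562) and -0.70 (SE 0.24, adjusted p = 0.556), and -0.15 and -0.14 without replicates 5 and 6. Trp53inp1, a stress-induced p53 cofactor chosen after its values were seen, had 9.30, 9.09, 9.34, 8.98, 7.71 and 7.71, against 8.87 to 9.70 in STZ mice. Mdm2, the ubiquitin ligase that restrains p53, differed less, with 6.62, 6.41, 6.52, 6.31, 5.46 and 5.95 at 0.5% quercetin and 5.81 to 6.75 in STZ mice. Its difference was -0.15 (SE 0.16, adjusted p = 0.869), and 0.099 without replicates 5 and 6, and -0.27 on the values as deposited.

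**Figure D3:**
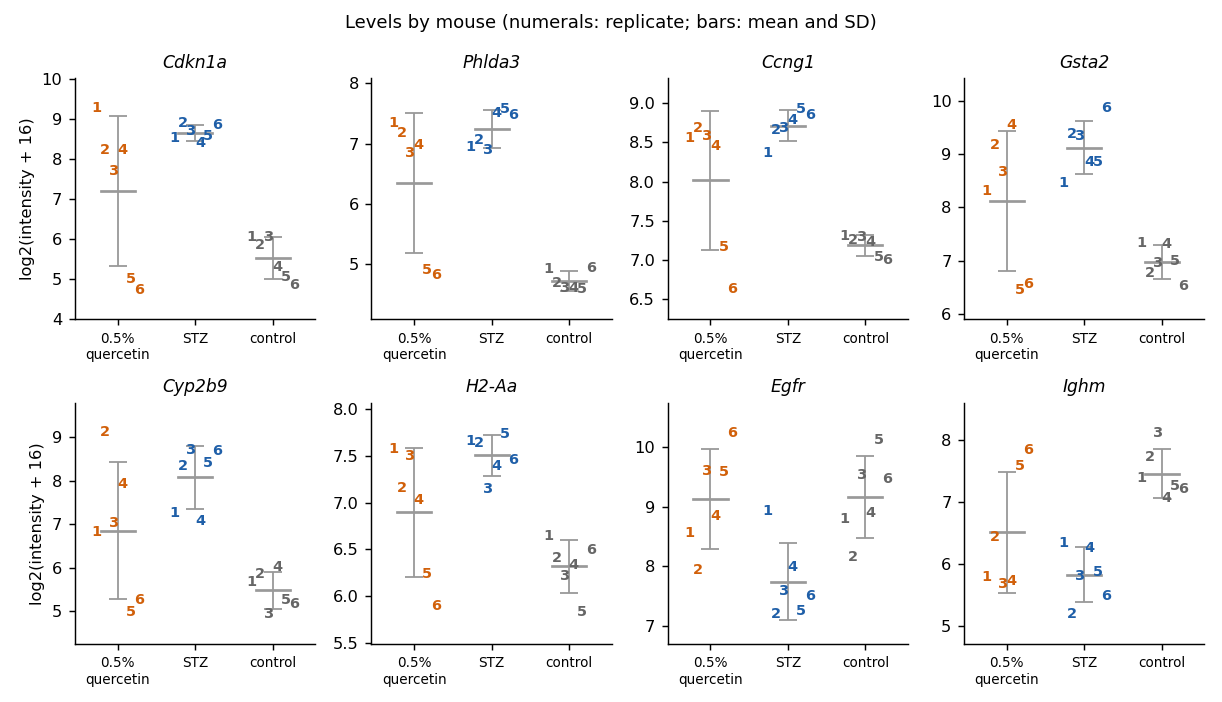
Levels of 8 genes, log2(intensity + 16), in 0.5% quercetin, STZ and control mice; numerals give the replicate, and bars the mean and SD of 6 mice. For Cdkn1a, 0.5% quercetin replicate 5 stands at 5.01 among the controls and replicate 6 at 4.72 below them, while the other 4 stand between 7.70 and 9.29.

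The promoter windows of Cdkn1a and of a pair of MHC class II genes described below are shown, because their levels divided the mice in the same way. The windows run from 250 bases before to 50 bases after an annotated start in RefSeq (build GRCm38.p6). Capitals mark p53 half-sites in Cdkn1a and the Y box, the letters CTGATTGG bound by NF-Y, in H2-Aa and H2-Eb1. Cdkn1a lies at chr17:29090729-29091028 on the plus strand, H2-Aa at chr17:34287774-34288073 on the minus strand and H2-Eb1 at chr17:34305617-34305916 on the plus strand.
Cdkn1a: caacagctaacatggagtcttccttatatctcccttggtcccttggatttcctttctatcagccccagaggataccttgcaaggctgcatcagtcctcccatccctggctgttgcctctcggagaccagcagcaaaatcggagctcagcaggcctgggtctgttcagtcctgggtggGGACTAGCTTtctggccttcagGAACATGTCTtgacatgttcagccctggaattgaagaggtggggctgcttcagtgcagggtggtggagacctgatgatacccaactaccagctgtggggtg
H2-Aa: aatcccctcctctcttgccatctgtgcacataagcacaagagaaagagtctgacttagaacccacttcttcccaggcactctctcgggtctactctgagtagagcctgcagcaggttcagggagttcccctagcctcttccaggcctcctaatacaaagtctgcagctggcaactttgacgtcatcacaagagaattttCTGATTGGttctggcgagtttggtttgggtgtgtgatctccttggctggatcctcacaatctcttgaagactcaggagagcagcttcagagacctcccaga
H2-Eb1: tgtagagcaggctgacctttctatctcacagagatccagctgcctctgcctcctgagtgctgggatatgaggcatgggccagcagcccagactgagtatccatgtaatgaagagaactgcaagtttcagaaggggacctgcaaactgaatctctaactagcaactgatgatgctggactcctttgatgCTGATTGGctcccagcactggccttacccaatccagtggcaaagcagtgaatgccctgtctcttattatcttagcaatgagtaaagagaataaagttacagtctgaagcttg
Both strands were searched, and overlapping matches counted. The Cdkn1a window held 2 half-sites. Of all 32851 windows, 0.359% held 2 or more and 8.36% held at least 1. Of the p53 targets listed, 22 had a window, 28 windows in all. A half-site was in 10 of these windows (35.7%), from 9 genes. The Y box was in 4.1% of all windows. It was in 3 of 8 windows (37.5%) of MHC class II genes, from 3 of the 7 genes matched. These matches describe the sequence only, and no factor binding was measured.

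Interferon response genes, which antiviral and inflammatory signals induce through STAT and IRF factors, had a median below 0 with all 6 mice and above 0 without replicates 5 and 6. Of 31 genes tested 25 had a lower mean and 6 had an unadjusted p under 0.05, all lower. The median was -0.16 with all 6 mice and 0.061 without replicates 5 and 6. The list mean by mouse was 0.17, -0.076, 0.12, 0.073, -0.61 and -0.60, with STZ mice from -0.13 to 0.19 and controls from -0.62 to -0.39. In replicates 5 and 6, 25 and 23 of the 31 genes lay below every STZ mouse, while in replicates 1 to 4 the counts were 1, 6, 0 and 3. Ly6e, an interferon-induced surface protein chosen after its values were seen, stood at 12.05, 11.83, 11.78, 11.81, 9.28 and 9.36 at 0.5% quercetin. Its level was 11.72 to 11.87 with a median of 11.79 in STZ mice and 9.48 to 10.05 in controls, and replicates 5 and 6 lay below every control. Irf7, the factor that amplifies interferon, stood at 8.10, 7.83, 7.67, 7.63, 6.38 and 5.86, against 7.36 to 7.75 in STZ mice. For Irf7, also picked after the fact, replicates 1 and 2 exceeded every STZ mouse and replicates 5 and 6 lay below all of them. Gbp7, a guanylate-binding protein with the smallest p of the list, differed by -0.30 (SE 0.10, adjusted p = 0.562) and by -0.13 without replicates 5 and 6.

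MHC class II molecules display peptides to helper T cells. Their list had 6 of 7 tested genes lower in mean, 4 of them at an unadjusted p under 0.05. The median was -0.27, and -0.097 without replicates 5 and 6. H2-Aa, a class II alpha chain, stood at 7.57, 7.16, 7.5, 7.03, 6.23 and 5.89 at 0.5% quercetin, against 7.15 to 7.73 with a median of 7.55 in STZ mice and 5.83 to 6.64 in controls. Replicates 5 and 6 were inside the control range and replicate 4 was below the lowest STZ mouse. The difference was -0.61 (SE 0.21, adjusted p = 0.562), and -0.19 without replicates 5 and 6. H2-Eb1, a class II beta chain, and Cd74, the invariant chain that guides class II assembly, had differences of -0.43 and -0.45, and of -0.097 and -0.067 without those mice. Both were chosen after their values were seen.

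Markers of resident macrophages moved with these immune genes. Of 16 macrophage and Kupffer cell markers tested 15 had a lower mean, 5 at an unadjusted p under 0.05, and in each of replicates 5 and 6, 13 of the 16 lay below every STZ mouse. Their summed intensity was 2331, 2382, 2228, 2278, 1498 and 1482 in replicates 1 to 6, against 2043 to 2617 in STZ mice. The median difference was -0.18, and -0.012 without replicates 5 and 6. The list mean relative to the STZ mean was -0.52 and -0.47 in replicates 5 and 6, below every control (-0.46 to -0.22). Clec4f, the C-type lectin of Kupffer cells, was at 8.21, 8.27, 8.01, 7.92, 7.49 and 7.73, with STZ mice at 7.99 to 8.23. Mpeg1, the macrophage pore-forming protein perforin-2, was at 8.51, 8.51, 8.44, 8.46, 7.73 and 7.41, with STZ mice at 8.32 to 8.78. Both genes, chosen after the fact, were above 7 in every mouse, so macrophage signal was lower and not lost in replicates 5 and 6. In whole liver, fewer macrophages and less RNA per macrophage cannot be told apart. The part of macrophage signal in the class II and interferon values was not tested.

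Of 6 B and plasma cell markers tested, 3 had a lower mean and 3 a higher one, with a median of 0.050, and 0.0035 without replicates 5 and 6. Only 2 of the 6 in replicate 5 and 1 in replicate 6 lay above every STZ mouse. The list mean was above all STZ mice in both. Ighm, the immunoglobulin mu heavy chain, stood at 5.80, 6.44, 5.69, 5.73, 7.59 and 7.84 at 0.5% quercetin, against 5.20 to 6.35 with a median of 5.85 in STZ mice and 7.07 to 8.12 in controls. Replicates 5 and 6 lay in the control range, replicate 2 just above the highest STZ mouse and the other 3 mice within the STZ range. The difference was 0.68 (SE 0.30, adjusted p = 0.615), and 0.084 without replicates 5 and 6. Further Ighm probe sets had differences of -0.024, 0.19, 0.022 and -0.29. The summed intensity of the 6 markers was 70.3, 102, 76.4, 72.4, 239 and 248, against 47.9 to 117 in STZ mice. In replicates 5 and 6 most of that sum was Ighm itself. Exocrine pancreas markers, of which 4 were tested, summed to 315, 220, 250, 226, 507 and 579, against 186 to 273 in STZ mice. Replicates 1, 5 and 6 thus lay above every STZ mouse. The list mean relative to the STZ mean was 0.23, 0.21, 0.029, 0.16, 0.56 and 0.65 by mouse. It was -0.12 to 0.13 in STZ mice and 0.27 to 0.59 in controls. The other 5 B cell and 9 pancreas markers were under the filter or had no probe set, and the part of these markers in other values was not tested. Of the other markers, the 19 of stellate cells and matrix, the 14 of endothelium, the 7 of T and NK cells and the 7 of neutrophils had medians of -0.095, -0.10, 0.033 and -0.11, and of -0.054, -0.083, -0.020 and -0.17 without replicates 5 and 6. The endothelial list held Lyve1, the hyaluronan receptor of sinusoids, with 6.16, 5.40, 5.98, 5.91, 4.91 and 4.64 against 5.80 to 6.25 in STZ mice, a difference of -0.52 (SE 0.18, adjusted p = 0.562), and -0.16 without replicates 5 and 6.

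The genes that detoxify electrophiles and drugs, through which a dietary flavonol is itself handled, were lower in mean in replicates 5 and 6, but replicate 1 was low as well in one list and most mice in another. NRF2 targets, induced when oxidants release this factor from KEAP1, had 22 of 28 genes lower in mean and 9 at an unadjusted p under 0.05, all lower. Their median was -0.22, and -0.076 without replicates 5 and 6, and the list mean by mouse was -0.12, 0.078, -0.21, -0.11, -0.50 and -0.49. STZ mice ranged from -0.077 to 0.14, so 5 of the 6 mice lay below all STZ mice in this list. Controls ranged from -0.48 to -0.28, with replicates 5 and 6 just below the lowest of them. Gsta2, a glutathione transferase, stood at 8.30, 9.18, 8.67, 9.54, 6.46 and 6.57, against 8.45 to 9.86 with a median of 9.09 in STZ mice and 6.52 to 7.33 in controls. The difference of Gsta2 was -1.0 (SE 0.42, adjusted p = 0.586), a ratio of 0.499, and -0.20 without replicates 5 and 6. Abcc4, an efflux transporter of conjugates, had the smallest p of the list, with 4.35, 4.50, 4.39, 4.13, 4.55 and 4.05 against 4.54 to 5.27, a difference of -0.42 (SE 0.11, adjusted p = 0.365) that was -0.40 without replicates 5 and 6. Nqo1, the quinone reductase that is a classical NRF2 target, differed by -0.29 (SE 0.15, adjusted p = 0.687), and by -0.12 without replicates 5 and 6. The heme-degrading enzyme Hmox1 had a difference of -0.11 (SE 0.14, adjusted p = 0.905), and 0.064 without those mice. Nqo1 lay below all STZ mice in replicates 1, 5 and 6.

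Targets of CAR and PXR, the receptors for drugs and other foreign compounds, had 16 of 20 genes lower in mean, with a median of -0.17, and -0.052 without replicates 5 and 6. The number of its genes below all STZ mice was 12, 0, 3, 2, 14 and 10 in replicates 1 to 6. The list mean was -0.45, 0.21, -0.080, 0.046, -0.80 and -0.76 with STZ mice from -0.33 to 0.46, so replicate 1 lay below every STZ mouse too. Cyp2b9, a cytochrome P450 higher in female liver, had 6.81, 9.11, 7.02, 7.93, 4.98 and 5.26 at 0.5% quercetin, against 7.08 to 8.69 with a median of 8.37 in STZ mice. The 6 mice spanned more than the STZ range on both sides, with replicate 2 above every STZ mouse and 4 mice below all of them. Its difference was -1.22 (SE 0.48, adjusted p = 0.579), and -0.36 without replicates 5 and 6. Cyp2c39 had 8.6, 10.36, 9.53, 9.77, 7.49 and 6.46, against 9.28 to 10.49 in STZ mice. Cyp2b10, the classical CAR target, differed by -0.49 (SE 0.34, adjusted p = 0.778), and by -0.17 without replicates 5 and 6. Among targets of the aryl hydrocarbon receptor, which many flavonoids bind, the P450 Cyp1a1 was at 4.60, 4.52, 4.65, 4.65, 4.51 and 4.88, near the floor, against 4.30 to 4.80 in STZ mice. The difference of Cyp1a1 was -0.0099, with a 95% interval of -0.20 to 0.18, and -0.040 without replicates 5 and 6, while 3 of 6 genes of that list were lower in mean. The list median was -0.0014, and -0.087 without those mice.

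Enzymes and transporters for flavonoid conjugates had 13 of 17 genes lower in mean, 3 lower and 1 higher at an unadjusted p under 0.05, with a median of -0.038, and -0.013 without replicates 5 and 6. Abcc3, which exports glucuronides to blood, had 7.31, 7.97, 7.38, 7.79, 7.07 and 7.25 against 7.49 to 8.41 in STZ mice, a difference of -0.50 (SE 0.19, adjusted p = 0.576), and -0.35 without replicates 5 and 6. Metallothioneins and antioxidant enzymes had 9 of 17 lower in mean with a median of -0.0059, and -0.0054 without those mice. Mt1, a metal-binding protein induced by stress hormones, ranged from 6.97 to 8.64 at 0.5% quercetin and from 6.14 to 9.63 in STZ mice, and differed by -0.31 (SE 0.46, adjusted p = 0.926), and by -0.074 without replicates 5 and 6. Prdx4, the peroxiredoxin of the endoplasmic reticulum, lay above all STZ mice in 5 of 6 mice. The Prdx4 difference was 0.28 (SE 0.094, adjusted p = 0.559), and 0.17 without replicates 5 and 6. It was 0.11 as deposited and 0.13 under median scaling, and the other Prdx4 probe sets differed by -0.14 and 0.12.

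Genes under growth hormone control moved in opposite directions by sex bias. Of 20 male-biased genes, kept high by pulsed growth hormone, 18 had a higher mean and 7 had an unadjusted p under 0.05, all higher. Their median was 0.39, and 0.20 without replicates 5 and 6. The list mean by mouse was 0.35, 0.015, 0.39, 0.094, 0.80 and 0.94, with STZ mice from -0.37 to 0.42 and controls from 0.71 to 0.93. Replicates 1 to 4 lay within the STZ range, replicate 5 within the control range and replicate 6 just above it. All 14 female-biased genes had a lower mean, with a median of -0.20, and -0.065 without replicates 5 and 6, when 11 of the 14 were lower. Some of these, Cyp2b9 among them, are also in the CAR and PXR list.

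Egfr, the epidermal growth factor receptor and a male-biased liver gene, had the smallest p of the male-biased list. It stood at 8.56, 7.94, 9.61, 8.85, 9.58 and 10.24 at 0.5% quercetin, against 7.20 to 8.93 with a median of 7.54 in STZ mice and 8.15 to 10.13 in controls. Replicates 3, 5 and 6 were above every STZ mouse, and the difference was 1.39 (SE 0.35, adjusted p = 0.365), 2.62-fold, and 1.0 without replicates 5 and 6. Further Egfr probe sets had differences of 1.17, -0.080, 0.70, 0.090 and 0.53. Hsd3b5, a male-specific steroid dehydrogenase, had 10.48, 9.31, 10.12, 9.51, 11.42 and 11.50, against 8.63 to 10.46 in STZ mice and 11.26 to 11.55 in controls. Its difference was 0.89 (SE 0.52, adjusted p = 0.715), and 0.36 without replicates 5 and 6.

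Some genes lay on one side of all STZ mice in every 0.5% quercetin mouse, although none passed the adjusted threshold. In all, 25 genes lay above all STZ mice in 6 of 6 mice (0.191%) and 17 below (0.13%). The mice can be arranged 6 against 6 in 924 ways, so some of the 13114 genes would separate by chance alone. These counts are no test. Of the 16 genes with the smallest p, 8 higher and 8 lower, 13 kept at least 75% of their difference without replicates 5 and 6. A small p favours genes of low spread, so that count describes the choice of genes and is no test. Of those 16 genes, 8 had a mean level under 5, close to the floor. Cep78, a centrosomal protein of cilium assembly, had the smallest p, with 4.21, 4.15, 4.60, 4.14, 4.15 and 4.46 against 4.65 to 4.84 with a median of 4.77 in STZ mice. All 6 mice were below all STZ mice, with replicate 3 closest to them. The difference was -0.48 (SE 0.091, adjusted p = 0.219), and -0.48 without replicates 5 and 6. Without replicate 3 alone it was -0.54 and passed (adjusted p = 0.0250), the only gene to do so with any single array left out.

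Nrp1, neuropilin 1, a co-receptor for VEGF and semaphorins on sinusoidal endothelium, was well above the floor. It stood at 8.91, 8.47, 8.84, 8.65, 8.47 and 9.22 at 0.5% quercetin, against 7.83 to 8.32 with a median of 7.96 in STZ mice and 8.14 to 9.14 in controls. The groups did not overlap, and the difference was 0.74 (SE 0.19, adjusted p = 0.365), 1.67-fold, and 0.70 without replicates 5 and 6. Of its other probe sets, 2 differed by 0.62 and 0.73 and the third by -0.42. Amacr, the racemase that lets branched fatty acids and bile acid precursors be oxidised, stood at 9.91, 9.88, 10.12, 9.995, 9.98 and 10.08, against 9.66 to 9.86 in STZ mice and 9.91 to 10.06 in controls. Here too the groups did not overlap, with a difference of 0.27 (SE 0.065, adjusted p = 0.365), 1.21-fold, and 0.25 without replicates 5 and 6. Amacr depended on the scaling, with 0.11 on the values as deposited and 0.13 under median scaling. The medians over all genes were -0.085 and -0.071 under those settings. Amacr belongs to the bile acid list, whose 19 genes had a median of -0.0058, and -0.022 without those mice.

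Slc2a1, the glucose transporter GLUT1, stood at 5.59, 5.59, 5.62, 5.83, 5.33 and 5.07 at 0.5% quercetin, against 5.84 to 6.27 with a median of 5.98 in STZ mice and 5.25 to 5.89 in controls. The difference was -0.49 (SE 0.12, adjusted p = 0.365), and -0.34 without replicates 5 and 6, and the other Slc2a1 probe sets differed by -0.43 and -0.19. Replicate 4 lay only just below the lowest STZ mouse. Syk, a tyrosine kinase of immune receptors, stood at 4.82, 4.67, 4.72, 4.46, 4.66 and 4.74, against 4.96 to 5.37. It lay low on the array in every group, its difference was -0.41 (SE 0.098, adjusted p = 0.365) and -0.42 without replicates 5 and 6, and its other probe set differed by -0.036. Aff2, a transcription elongation factor, and Gm9946, a predicted gene, lay above all STZ mice in 6 of 6 mice with differences of 0.32 and 0.39, and of 0.33 and 0.36 without replicates 5 and 6. The other Aff2 probe set differed by 0.054.

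**Figure D4:**
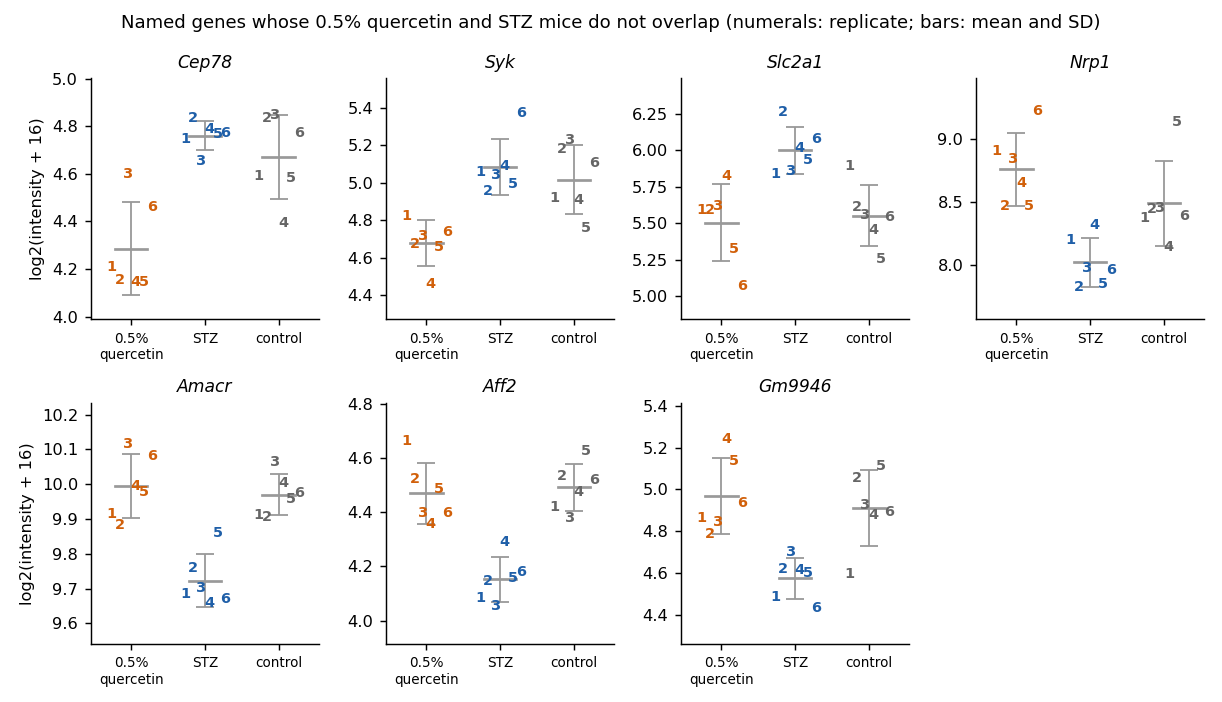
Levels, log2(intensity + 16), of the 7 named genes in which no 0.5% quercetin mouse overlapped an STZ mouse, with controls beside them; numerals give the replicate, and bars the mean and SD of 6 mice. Nrp1 runs from 8.47 to 9.22 at 0.5% quercetin and from 7.83 to 8.32 in STZ mice.

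Among the genes with small p whose groups overlapped, 4 lay below the STZ mean by similar amounts with and without replicates 5 and 6. Wsb1, a ubiquitin ligase adaptor, differed by -0.64 (SE 0.16), and by -0.64 without replicates 5 and 6. Pde4b, a cAMP phosphodiesterase, differed by -0.59 (SE 0.15), and by -0.69 without them. Rnd3, which loosens actin stress fibres, and Sh3pxd2b, a scaffold of podosomes, differed by -0.47 and -0.48, and by -0.49 for each without them. The adjusted p was 0.365 for all 4 genes. Other probe sets differed by -0.33, -0.058 and 0.077 for Pde4b, by -0.29 for Rnd3 and by 0.091 for Sh3pxd2b. Sh3pxd2b lay near the floor, with means of 4.22 at 0.5% quercetin and 4.70 in STZ mice. Ly6d, a small surface protein, differed by -1.10 (SE 0.27, adjusted p = 0.365), with 6.19, 6.81, 5.84, 6.68, 4.59 and 5.02 against 6.23 to 7.58 in STZ mice and 4.54 to 4.98 in controls. For Ly6d the difference was -0.58 without replicates 5 and 6, so it belonged partly to the uneven set. The higher genes Pip5k1b, a phosphoinositide kinase, Mturn and 4930577N17Rik differed by 0.56, 0.42 and 0.34, and by 0.45, 0.43 and 0.36 without replicates 5 and 6, at mean levels under 5.

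**Figure D5:**
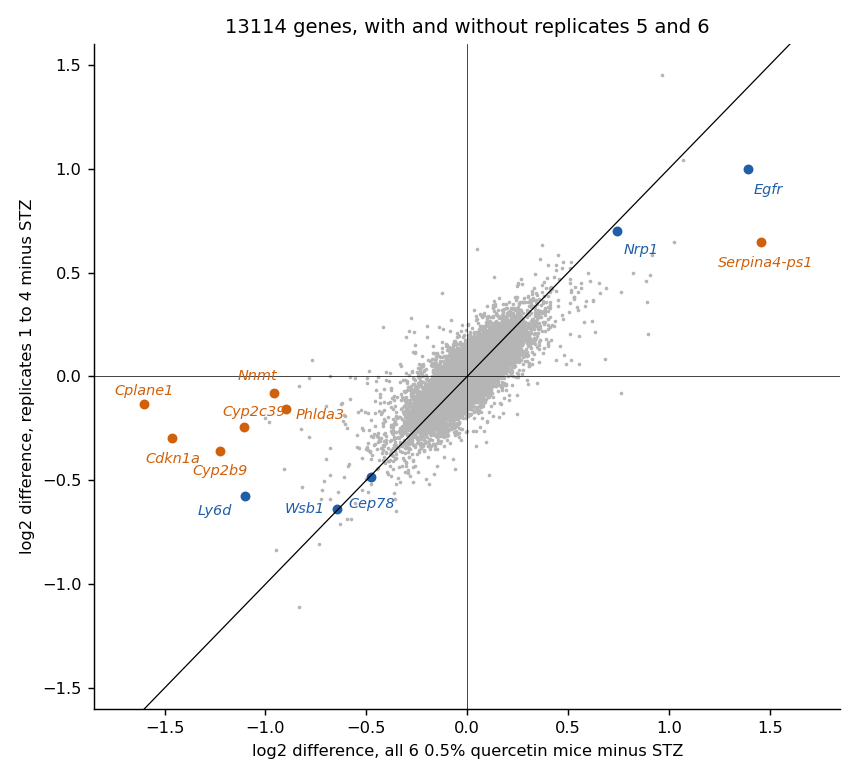
Each point is 1 of the 13114 genes, with its log2 difference from STZ over all 6 mice at 0.5% quercetin on the horizontal axis and over replicates 1 to 4 on the vertical axis; the diagonal marks equal values. Orange names are genes of large SD such as Cdkn1a, at -1.46 and -0.30, far from the diagonal, and blue names are genes of small p such as Wsb1, at -0.64 and -0.64, most of them near it.

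At least 1.5-fold from the STZ mean were 67 genes (0.511%), 26 higher and 41 lower. Without replicates 5 and 6 the difference was still at least 1.5-fold for 15 of them and under 50% of its full size for 30. Cplane1, a gene of cilium formation, had the largest SD, with 8.44, 8.73, 9.49, 9.34, 4.32 and 4.86 at 0.5% quercetin, against 8.35 to 9.76 in STZ mice and 4.25 to 4.67 in controls. Its difference was -1.6 (SE 0.62, adjusted p = 0.576), and -0.13 without replicates 5 and 6. Its other probe sets differed by 0.074, 0.074, -0.53, -0.87 and -0.46. Nnmt, which methylates nicotinamide, had 7.73, 7.15, 7.60, 8.84, 5.45 and 4.92 against 6.06 to 9.35 in STZ mice. Serpina4-ps1, a serpin pseudogene, had 7.24, 6.01, 6.24, 5.63, 8.42 and 9.0 against 4.74 to 7.51.

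Genes of glucose and lipid metabolism, on which the loss of insulin acts, gave smaller and less regular differences. Gluconeogenesis had 11 of 19 genes lower in mean, 2 at an unadjusted p under 0.05, with a median of -0.048, and -0.014 without replicates 5 and 6. That median was above 0 under trimmed mean scaling, with the Gapdh term and without replicate 1, at up to 0.030. G6pc, glucose-6-phosphatase, had 8.62, 8.78, 10.38, 9.87, 10.19 and 10.39, against 9.27 to 10.35 in STZ mice. Replicates 1 and 2 were below all STZ mice, replicates 3 and 6 above them, and the G6pc difference was 0.027 with a 95% interval of -0.59 to 0.64. It was -0.27 without replicates 5 and 6 and -0.12 on the values as deposited. Pck1, phosphoenolpyruvate carboxykinase, had 10.45, 10.12, 11.14, 11.04, 10.21 and 10.22, against 10.49 to 11.14. Of these 6 mice 4 lay below every STZ mouse, and the Pck1 difference was -0.25 (SE 0.17, adjusted p = 0.779), and -0.090 without replicates 5 and 6. Got1, which moves reducing power between cytosol and mitochondria, differed by -0.73 (SE 0.29, adjusted p = 0.579), and by -0.59 without replicates 5 and 6. Igfbp1, which binds insulin-like growth factors and is held down by insulin, had 8.36, 8.07, 8.92, 8.70, 7.43 and 8.35, against 7.95 to 10.12. The Igfbp1 difference was -0.71 (SE 0.33, adjusted p = 0.632), and -0.50 without replicates 5 and 6. Only replicate 5 was below all STZ mice for Igfbp1.

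Pdk4, the kinase that restrains glucose oxidation in fasting and diabetes, had 5.16, 5.15, 4.72, 5.07, 5.27 and 4.91 at 0.5% quercetin, against 5.06 to 5.75 with a median of 5.44 in STZ mice. The difference was -0.38 (SE 0.13, adjusted p = 0.537), and -0.40 without replicates 5 and 6, so Pdk4 did not follow the split. Glycolysis and glucose uptake had 12 of 14 genes lower in mean and 1 in each direction at an unadjusted p under 0.05, with a median of -0.074, and -0.076 without replicates 5 and 6. Glycogen metabolism had 12 of 17 lower with a median of -0.067, and -0.065 without them. The insulin signalling list had 8 of 19 lower with a median of 0.056, and 0.045 without them. The median of that list turned to -0.089 on the values as deposited, where the median over all genes was -0.085.

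In lipid synthesis the mice divided otherwise: replicate 3 was low and replicate 5 high in both lists, and replicate 4 was low only for fatty acids. The mean of 25 genes of fatty acid and triglyceride synthesis was 0.025, 0.045, -0.33, -0.29, 0.32 and 0.14 by mouse, with STZ mice from -0.25 to 0.32. The mean of 20 cholesterol synthesis genes was 0.13, -0.26, -0.52, -0.061, 0.41 and 0.0016, with STZ mice from -0.25 to 0.38, and 15 of the 20 lay below all STZ mice in replicate 3 while 10 lay above them in replicate 5. No gene of either list had an unadjusted p under 0.05. The fatty acid list had 16 of 25 genes lower in mean with a median of -0.029. Without replicates 5 and 6, 20 were lower, with a median of -0.077. The cholesterol list had 13 of 20 lower with a median of -0.063, and 18 lower with a median of -0.17 without them. Both medians thus lay further below 0 without replicates 5 and 6, but rose above 0 with some single arrays left out. Fasn, fatty acid synthase, had 8.71, 8.87, 7.67, 7.71, 9.42 and 9.01 against 7.96 to 9.82, a difference of -0.19 (SE 0.28, adjusted p = 0.922). Its difference was -0.52 without replicates 5 and 6. Scd1, the fatty acid desaturase, differed by -0.012 with a 95% interval of -0.38 to 0.36, and by -0.059 without those mice. The other Scd1 probe set differed by -0.30. As deposited, Fasn differed by -0.35.

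PPARalpha targets, which burn fatty acids, had 10 of 29 genes lower in mean with a median of 0.041, and 0.10 without replicates 5 and 6. On the values as deposited and under median scaling that median was below 0, as was the median over all genes (-0.085 and -0.071). The list mean by mouse was 0.0082, 0.16, 0.063, 0.17, -0.36 and -0.21, with STZ mice from -0.23 to 0.24. Only replicate 5 lay below that range. Cyp4a14, a fatty acid hydroxylase induced by PPARalpha, had 6.39, 6.6, 6.21, 7.51, 4.08 and 4.54, against 5.36 to 9.30 in STZ mice and 4.09 to 4.82 in controls. Its difference was -0.83 (SE 0.62, adjusted p = 0.797), and -0.044 without replicates 5 and 6. Cd36, a fatty acid transporter picked after the fact, had 6.98, 8.30, 7.06, 7.85, 5.63 and 4.91 against 7.25 to 8.22.

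Of the remaining lists, amino acid breakdown and the urea cycle had 22 of 28 genes lower in mean, 4 at an unadjusted p under 0.05, with a median of -0.099, and -0.034 without replicates 5 and 6. The unfolded protein response and heat shock had 22 of 29 lower with a median of -0.10, and -0.061 without them. The acute phase and NF-kappaB list had 17 of 28 lower with a median of -0.038, and -0.0011 without them, and Saa1, serum amyloid A, stood at 8.18 to 9.22 at 0.5% quercetin and 8.57 to 9.67 in STZ mice. Lipoproteins, the cell cycle, glucocorticoid responsive genes, the respiratory chain, AMPK and NAD supply, and iron and heme had medians of -0.035, -0.036, -0.010, 0.0026, -0.015 and -0.055. Without replicates 5 and 6 these were 0.0086, 0.0071, 0.0016, 0.015, -0.019 and 0.0085. Over the 40 lists, the means of both replicates 5 and 6 lay below all STZ mice in 16 lists and above all of them in 3. Counted singly, replicates 1 to 6 had 7, 5, 9, 9, 21 and 17 list means below all STZ mice. List means above all STZ mice numbered 3, 2, 1, 1, 6 and 5.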

How the data were processed

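Liver RNA of each mouse was, per the labels' protocols, hybridised to an Affymetrix 3' mouse array. The authors deposited 1 linear intensity for each of 45101 probe sets an array, 64 of them controls. The summary method, scaling and genome build are not given in the sources used here, and 0 deposited sample columns were left out. Of the probe sets, 34958 had 1 gene symbol in the platform annotation, 932 several and 9211 none, and 34754 of the first matched a RefSeq gene, which changed 0 symbols. The 24 arrays were quantile normalized and converted to log2(value + 16). Each gene was represented by its single-symbol probe set of highest mean, and a floor at the 40th percentile of probe set means kept 13114 of 18194 genes for testing.

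Tests used limma (version 3.58.1, R 4.3.3), with 4 group means over 24 arrays, two-sided, Benjamini-Hochberg adjusted over all genes at 0.05; the fit was tested on simulated data. Named genes were the 8 higher and 8 lower genes of smallest p, the member of smallest p of each of 40 lists, the 6 genes of largest SD at 0.5% quercetin and 17 tested of 20 fixed genes, 70 in all; others are said to be chosen after their values were seen. Members, lists and tests were chosen with earlier results of these data known. Lists are described without a test, and share some members. Alternatives covered scaling, pseudocount, filter, arrays in the fit, array weights, replicate number, Gapdh and each array left out. The number of arrays limits the precision.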

Additional observations from a re-analysis of the deposited data

Results flagged for a closer look

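In 140 groups of 6 values, 8 held 1 mouse far from the other 5 by Dixon's criterion, where chance flags about 1 in 20 groups. At 0.5% quercetin, Cry1, a repressor of the circadian clock, had a level of 5.94 in replicate 1, with 4.90 to 5.22 in the other mice. Mcm5, a DNA replication helicase subunit, had 4.58 in replicate 6, with 4.96 to 5.17 in the others. Pdia4, an oxidoreductase of the endoplasmic reticulum, had 6.95 in replicate 5, with 7.85 to 8.16 in the others. Saa1, an acute phase protein, had 8.18 in replicate 2, with 8.85 to 9.22 in the others. In STZ mice, Cyp4a14 had 9.30 in replicate 6, with 5.36 to 6.79 in the others, Abcc4 had 5.27 in replicate 6, with 4.54 to 4.68, and Syk had 5.37 in replicate 6, with 4.96 to 5.09. Cyp1a1 had 4.30 in STZ replicate 2, with 4.63 to 4.80 in the others. Of these 8 values, 3 were in STZ replicate 6 and 4 in different mice at 0.5% quercetin.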

How the results depend on the processing

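The counts of genes at an adjusted p of 0.05 were 0 higher and 0 lower under every alternative run, except without 0.5% quercetin replicate 3, where 1 gene, Cep78, was lower. With each array left out in turn, the count of lower genes was thus 0 to 1 and that of higher genes 0 to 0. At an unadjusted p under 0.05, the 985 genes became 720 on the values as deposited, 1377 under median scaling, 588 without replicates 5 and 6, and 683 to 1230 with 1 array left out. The replicate number as a block gave 0 higher and 0 lower genes and 1039 at an unadjusted p under 0.05. Over all genes, same-numbered 0.5% quercetin and STZ mice did not deviate together (correlations of -0.14 to 0.049). The numbers were therefore not taken to pair mice, but an order shared by a smaller set of genes was not tested. For the clock gene Dbp the block gave an adjusted p of 0.382, against 0.671. With the Gapdh difference as a term 733 genes had an unadjusted p under 0.05. The sign of 7 of 70 named genes turned under some of 26 settings, in 29 of 1810 values. The median of the interferon list was above 0 only without replicates 5 and 6, at 0.061. Under trimmed mean scaling the medians of the aryl hydrocarbon receptor, metallothionein, acute phase, gluconeogenesis, lipoprotein, clock and hepatocyte lists changed sign, and on deposited and median-scaled values those of the insulin, PPARalpha, respiratory chain, hepatocyte, muscle and red blood cell lists. Over all genes the median was -0.085 on deposited values and -0.071 on median-scaled ones, against 0.0011 in the main fit. The Gapdh difference between groups was 0.12 as deposited (exact permutation p = 0.156). Genes near the floor of the array are limited by signal over background, and no detection call was used.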

Other observations

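Clock genes differed between mice of both groups. Dbp, an output factor of the clock chosen after its values were seen, stood at 6.45, 6.88, 9.49, 9.02, 9.11 and 9.08 in replicates 1 to 6 at 0.5% quercetin and at 5.56, 7.24, 6.50, 7.84, 8.56 and 8.17 in STZ mice. Arntl, the activator that peaks opposite to Dbp, stood at 6.10, 5.65, 4.73, 5.38, 5.51 and 5.32 at 0.5% quercetin and at 6.38, 6.16, 6.29, 5.55, 5.12 and 5.20 in STZ mice. Low Dbp went with high Arntl in replicates 1 and 2 of each group, and in STZ replicate 3. Control replicates 1 and 2 had Dbp at 7.07 and 7.38, with 7.95 to 8.96 in the other controls. Dbp differed by 1.03, and by 0.65 without replicates 5 and 6. The hour at which each mouse was killed is not given in the sources used here. The clock list had a median of -0.017 over 21 genes, and Cry1 differed by -0.45 (SE 0.16, limma adjusted p = 0.572), and by -0.35 without replicates 5 and 6.

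Other genes of large difference, all chosen after their values were seen and none past the threshold, are given with their ranges. Rgs16, a brake on G protein signalling, had 8.27 to 9.34 at 0.5% quercetin and 6.42 to 8.73 in STZ mice, a difference of 1.07, and 1.04 without replicates 5 and 6. In STZ replicates 1 to 6 Rgs16 stood at 6.98, 6.42, 7.14, 7.75, 8.73 and 8.71. Its other probe sets differed by 0.87 and 0.96. Malat1, a nuclear non-coding RNA, differed by -0.83, and by -1.11 without replicates 5 and 6, with other probe sets from -1.06 to 0.10. G0s2, an inhibitor of the lipase ATGL, had 8.77 to 10.41 at 0.5% quercetin and 7.94 to 9.64 in STZ mice, a difference of 0.91, and 0.58 without replicates 5 and 6. Cyp7a1, the hydroxylase that starts bile acid production, had 5.89 to 7.94 at 0.5% quercetin and 4.41 to 8.27 in STZ mice, a difference of 0.91 (SE 0.67), and 0.49 without replicates 5 and 6. By replicate number Cyp7a1 stood at 4.83, 4.41, 4.70, 4.95, 7.51 and 8.27 in STZ mice and at 4.63, 4.69, 5.04, 6.53, 7.72 and 6.96 in controls. The part of replicate order in these differences was not tested.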
